A study of Mus musculus with 18 samples.

Results

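The genes described here are interferon-stimulated genes, the antiviral programme that a cell switches on when interferon reaches its receptors. They were chosen by name: 49 genes were listed, all 49 had a row among the 23899 genes of the series, and the test covered the 36 whose mean over the 18 libraries reached 1 FPKM. The other 13 had a mean under 1 FPKM and are described separately. FPKM counts sequenced fragments normalised to transcript length and library size. The cells were primary mouse leukaemia cells that express MLL-AF9, a fusion oncoprotein of acute myeloid leukaemia, and Cas9, cultured in RPMI medium with mouse interleukin-3 (mIL3). All 6 groups of 3 libraries share the MLL-AF9 and Cas9 background and the cytokine. The groups with a Jmjd1c guide carry guide e12.3, guide e12.4, guide e20.1 or guide e21.1, and the control groups are a guide against Renilla luciferase and mock. Jmjd1c encodes a nuclear protein of the jumonji histone demethylase family, whose jumonji domain and zinc finger were the regions aimed at. The domain that each guide hits, the treatment of the mock cells, the number of leukaemias or clones behind the cells and the share of edited cells are unstated in the labels. Whether the 3 libraries of a group came from separate cultures is not given either, so the p-values reflect the spread among libraries alone, and that spread may be technical. Values for single libraries are given in the order of replicates 1, 2 and 3.

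Type I interferons bind a receptor made of IFNAR1 and IFNAR2, which activates the kinases JAK1 and TYK2. These phosphorylate STAT proteins, among them STAT2, which joins IRF9 in the complex ISGF3. This complex binds the interferon-stimulated response element (ISRE) in the promoters of target genes, whereas gamma-activated sites (GAS) are bound after interferon gamma. The targets include sensors of viral nucleic acid, proteins that block viral entry and replication, and factors such as IRF7 that amplify the response, and in blood-forming cells some of them are also transcribed at a basal level.

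Promoter windows of 300 bases, from 250 bases before to 50 after the annotated start, were taken from RefSeq (GRCm38.p6) for 39 of the 49 genes. Both strands were searched for the ISRE core, which is GAAA, any 2 bases and GAAA again, and for the GAS core TTCNNNGAA. Matches of the ISRE core can lie 6 bases apart and then overlap, and the 2 cores can also overlap each other. The ISRE core was found for 20 of the 39 genes (51.3%), beside 3.99% of all 27025 genes of the promoter table. GAS was found for 12 of the 39 (30.8%), beside 9.55% of all genes. Among the genes that later passed the test with the 4 guides against both controls, 5 of the 10 with a window held the ISRE core. Among the tested genes that passed against neither control it was 9 of 20, and among those under 1 FPKM 5 of 8. No test was made of these shares. A match is a description of the letters only.

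The stretches below are shown because they place the core in 5 genes that rose with the guides (Ifitm3, Gbp3, Gbp7, Mndal and Ifi203), 1 well expressed gene that did not pass the test (Oas1a) and 2 genes under 1 FPKM (Isg15 and Ifit3). Each is written 5′ to 3′ on the strand of the gene, with the ISRE core, or its reverse complement, in capitals. Stretches reach at most 160 bases before the start and end where an annotated untranslated region begins, and 30 bases are shown where the core lies in such a region (Ifitm3 and Mndal). The positions (GRCm38) are Ifitm3 at chr7:141010714-141010743 on the minus strand, Gbp3 at chr3:142559884-142560025 on the plus strand, Gbp7 at chr3:142530176-142530335 on the plus strand, Mndal at chr1:173880204-173880233 on the minus strand, Ifi203 at chr1:173942493-173942652 on the minus strand, Oas1a at chr5:120907526-120907685 on the minus strand, Isg15 at chr4:156200819-156200978 on the minus strand, and Ifit3 at chr19:34583369-34583528 on the plus strand.
Ifitm3: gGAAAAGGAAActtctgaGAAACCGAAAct
Gbp3: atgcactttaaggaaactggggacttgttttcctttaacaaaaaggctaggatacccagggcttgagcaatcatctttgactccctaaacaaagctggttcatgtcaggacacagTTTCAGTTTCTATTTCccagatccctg
Gbp7: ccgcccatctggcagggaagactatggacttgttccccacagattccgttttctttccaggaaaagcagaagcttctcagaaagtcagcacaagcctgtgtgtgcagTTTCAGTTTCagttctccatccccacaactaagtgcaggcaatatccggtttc
Mndal: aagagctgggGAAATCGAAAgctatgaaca
Ifi203: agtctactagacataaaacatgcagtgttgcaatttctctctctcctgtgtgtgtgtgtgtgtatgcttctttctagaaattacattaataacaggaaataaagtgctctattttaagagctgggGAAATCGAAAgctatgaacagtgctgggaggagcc
Oas1a: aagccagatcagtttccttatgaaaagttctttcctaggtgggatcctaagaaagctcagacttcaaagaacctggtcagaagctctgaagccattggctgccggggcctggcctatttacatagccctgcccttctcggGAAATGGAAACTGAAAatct
Isg15: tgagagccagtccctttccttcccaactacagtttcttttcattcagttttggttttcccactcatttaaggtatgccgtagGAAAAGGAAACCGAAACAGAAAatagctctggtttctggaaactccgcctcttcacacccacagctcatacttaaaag
Ifit3: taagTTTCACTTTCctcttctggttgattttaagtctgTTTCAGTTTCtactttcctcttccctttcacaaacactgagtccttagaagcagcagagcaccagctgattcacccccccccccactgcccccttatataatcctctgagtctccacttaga

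Isg15 held 3 overlapping cores, first at 78 bases before the start, and Gbp3 and Oas1a held 2 overlapping cores each. In Ifitm3 the 2 cores lay after the start, at positions 3 and 20 of the transcribed sequence. Ifi203 and Mndal carried the same core at 35 and 36 bases before their starts, within an identical run of 139 bases shared by windows of both genes. These paralogous genes also overlap on the same strand in the annotation, so the assignment of reads between Mndal and Ifi203 is uncertain.

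Estimated depth was 20.6 to 182.8 M reads per library (median 31.8), at which 1 FPKM of a transcript of 2 kb stands for 41 to 366 reads. Jmjd1c transcripts were measured at 42.2 to 74.4 FPKM in the 12 guide libraries and at 64.2 to 85.4 FPKM in the 6 control libraries, and their difference did not pass the test (log2 fold change -0.29 ± 0.13 SE, adjusted p = 0.19 against Renilla). A whole-gene FPKM does not show whether the guides edited the gene, so it checks no label. Among the progenitor genes that mark these leukaemias, Hoxa9 and Meis1 were present in all 18 libraries, at 64.2 to 119 and 28.8 to 38.7 FPKM. The sum of the longer list that holds them was lower with the guides, as given below with the other markers. Replicate 3 of e12.3 and replicate 3 of e21.1 stood apart: 51.0 and 53.4% of the 11550 tested genes lay outside the range of the other 10 guide libraries there. Results are therefore also given without these 2 libraries. Their estimated depth was 66.9 and 75.4 M reads in the same order, beside 182.8 M in mock replicate 1 and 20.6 to 43.3 M in all others. The part of depth in their difference was not tested.

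With the 4 Jmjd1c guides combined, 16 of the 36 tested genes rose against Renilla and 14 rose against mock, and none fell. Of all 11550 tested genes 11% were called against Renilla, 7.77% higher and 3.21% lower, and 9% were called against mock, 6.84% higher and 2.16% lower. A gene was called where its adjusted p from limma, corrected by the Benjamini-Hochberg method across all tested genes, was under 0.05, and fold changes are on the log2(FPKM + 1) scale, which understates changes of low genes. The median change of the 36 genes was 0.52 against Renilla and 0.46 against mock, beside -0.03 and -0.02 over all tested genes. The log2 fold change was above 0 for 34 of the 36 genes in each comparison, and for 44.9 and 46.2% of all genes. The 14 genes called against both controls were Ifi27l2a, Mndal, Zbp1, Ifitm1, Ifitm3, Xaf1, Gbp7, Irf7, Gbp3, Ifi203, Dhx58, Parp14, Samhd1 and Irf9, while Igtp and Parp9 were called against Renilla alone. The 2 comparisons share the guide libraries and are not independent of each other.

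Zbp1, Xaf1, Irf7 and Ifi203 had a mean under 1 FPKM in the 6 control libraries and entered the tested set through their levels with the guides, so they had to differ. Of the 32 genes with a control mean of at least 1 FPKM, 12 were called higher against Renilla and 10 against both controls. Over all tested genes, including those that entered through the guides, 7.77% were higher against Renilla and 6.84% against mock. The share over all genes with such a control mean was not computed for these calls, nor was that for both controls. With no filter, all 49 genes could be tested: 17 rose against Renilla (5.48% of 23899 genes called, 3.82% higher) and 18 against mock (4.41% called, 3.35% higher), and none fell. Without the 2 libraries that stood apart, 18 of 36 rose against each control, beside 18.1% of all genes called against Renilla (11% higher, 7.08% lower) and 16.2% against mock (9.93% higher, 6.25% lower). In bulk RNA a change in the share of cells that express a gene and a change in RNA per cell cannot be told apart.

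**Figure D1:**
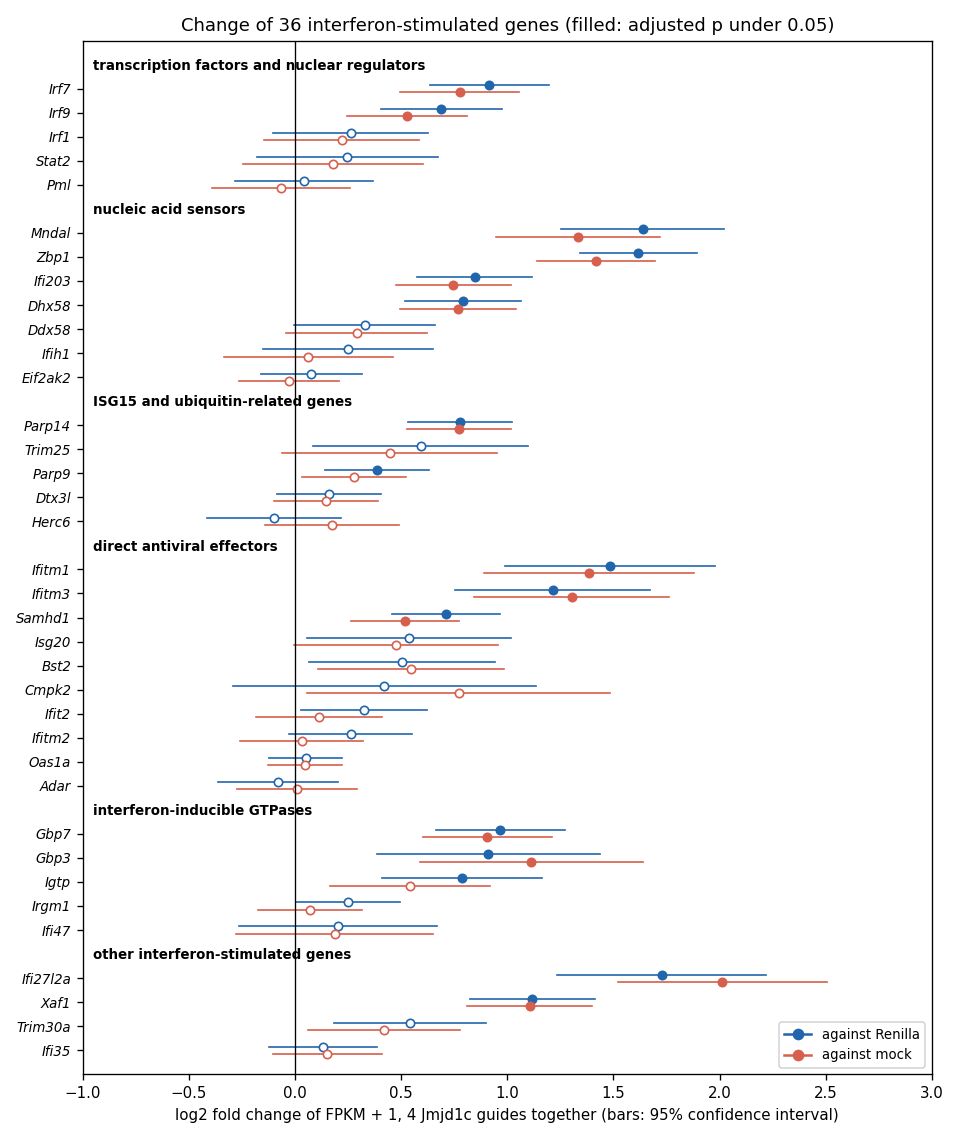
Change of the 36 tested interferon-stimulated genes with the 4 Jmjd1c guides together, as log2 fold change of FPKM + 1 (x axis) by gene and role (y axis), against Renilla (blue) and mock (red), with bars for the 95% confidence interval and filled points for an adjusted p under 0.05. The filled points all lie to the right of 0, from 0.39 for Parp9 to 1.73 for Ifi27l2a against Renilla, and 20 genes have open points in both comparisons.

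Of the 5 transcription factors and nuclear regulators, Irf7 and Irf9 rose against both controls, and Irf1, Stat2 and Pml passed against neither. Irf7, the factor that amplifies interferon gene transcription, lies at ENSMUSG00000025498.15, chr7:141262706-141266481, minus strand in GENCODE vM21 (GRCm38). Irf7 was measured at 0.321, 0.519 and 0.459 FPKM in the 3 Renilla libraries and at 0.540, 0.517 and 0.675 FPKM in the 3 mock libraries. Irf7 stood at 1.19, 1.84 and 0.874 FPKM for guide e12.3, 1.90, 1.55 and 1.71 for guide e12.4, 1.98, 1.69 and 1.64 for guide e20.1 and 2.85, 1.88 and 1.70 for guide e21.1. Every guide library lay above every control library, and replicate 3 of e12.3 was the lowest of the guide libraries. Irf7 rose by 0.92 ± 0.13 (SE, adjusted p = 0.00021) against Renilla and by 0.78 ± 0.13 (SE, adjusted p = 0.001) against mock on the log2 scale. The DNA-binding partner in ISGF3 is Irf9 (ENSMUSG00000002325.15, chr14:55603571-55610030, plus strand). Irf9 was measured at 3.31, 4.08 and 4.47 FPKM in the 3 Renilla libraries and at 4.06, 4.53 and 4.99 FPKM in the 3 mock libraries. Irf9 stood at 5.87, 6.72 and 8.21 FPKM for guide e12.3, 5.66, 6.15 and 6.92 for guide e12.4, 6.30, 7.17 and 7.52 for guide e20.1 and 6.17, 6.98 and 10.8 for guide e21.1. The groups did not overlap, and the highest values were the 2 replicate 3 libraries of e21.1 and e12.3. Irf9 rose by 0.69 ± 0.13 (SE, adjusted p = 0.0027) against Renilla and by 0.53 ± 0.13 (SE, adjusted p = 0.02) against mock on the log2 scale. Its call against mock was lost on leaving out any 1 mock library (adjusted p = 0.13, 0.089 and 0.051 without replicates 1, 2 and 3).

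Stat2, a subunit of ISGF3 (ENSMUSG00000040033.16, chr10:128270559-128292849, plus strand), overlapped between guides and controls. Stat2 was measured at 12.7, 19.99 and 22.4 FPKM in the 3 Renilla libraries and at 13.9, 22.7 and 21.103 FPKM in the 3 mock libraries. Stat2 stood at 16.7, 25.8 and 21.2 FPKM for guide e12.3, 16.9, 27.3 and 25.2 for guide e12.4, 20.2, 19.2 and 23.9 for guide e20.1 and 15.1, 25.6 and 24.3 for guide e21.1. In every group except e20.1 the first replicate was the lowest. The log2 fold change was 0.25 ± 0.20 (SE, adjusted p = 0.49) against Renilla and 0.18 ± 0.20 (SE, adjusted p = 0.68) against mock. For Irf1, a factor induced early by interferon gamma, the mean was 14.2 ± 3.04 FPKM with the guides (SD, n = 12) and 11.7 ± 2.49 FPKM in Renilla (n = 3), a log2 fold change of 0.26 ± 0.17 (SE, adjusted p = 0.38). Pml, the organiser of nuclear bodies, had 22.8 ± 4.38 and 21.9 ± 3.40 FPKM and a log2 fold change of 0.04 ± 0.15 (SE, adjusted p = 0.9).

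Among the 7 tested nucleic acid sensors, Zbp1, Mndal, Ifi203 and Dhx58 rose against both controls, and Ddx58, Ifih1 and Eif2ak2 passed against neither. Zbp1 binds nucleic acids in the Z conformation and can start necroptosis (ENSMUSG00000027514.14, chr2:173206612-173218923, minus strand). Zbp1 was measured at 0.206, 0.356 and 0.153 FPKM in the 3 Renilla libraries and at 0.389, 0.390 and 0.479 FPKM in the 3 mock libraries. Zbp1 stood at 2.12, 2.37 and 1.84 FPKM for guide e12.3, 3.69, 2.45 and 2.36 for guide e12.4, 3.17, 2.84 and 2.57 for guide e20.1 and 3.87, 2.64 and 4.38 for guide e21.1. The lowest guide library (1.84 FPKM) lay far above the highest control library (0.479 FPKM). Zbp1 rose by 1.62 ± 0.13 (SE, adjusted p = 7.3e-07) against Renilla and by 1.42 ± 0.13 (SE, adjusted p = 2.9e-06) against mock on the log2 scale. Mndal is a nuclear DNA-binding protein of the PYHIN family (ENSMUSG00000090272.8, chr1:173849126-173942491, minus strand). Mndal was measured at 0.847, 0.738 and 1.16 FPKM in the 3 Renilla libraries and at 1.46, 1.37 and 1.23 FPKM in the 3 mock libraries. Mndal stood at 4.39, 4.47 and 2.17 FPKM for guide e12.3, 5.25, 4.03 and 4.37 for guide e12.4, 7.02, 4.49 and 3.94 for guide e20.1 and 6.11, 6.12 and 9.85 for guide e21.1. All guide libraries lay above the controls, with replicate 3 of e12.3 lowest and replicate 3 of e21.1 highest. Mndal rose by 1.64 ± 0.18 (SE, adjusted p = 1.8e-05) against Renilla and by 1.33 ± 0.18 (SE, adjusted p = 0.00013) against mock on the log2 scale.

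Ifi203 is a neighbouring PYHIN gene (ENSMUSG00000039997.16, chr1:173920407-173942672, minus strand) with lower levels. Ifi203 was measured at 0.6997, 0.578 and 0.676 FPKM in the 3 Renilla libraries and at 0.772, 0.708 and 0.836 FPKM in the 3 mock libraries. Ifi203 stood at 2.56, 1.86 and 1.36 FPKM for guide e12.3, 1.76, 1.62 and 1.65 for guide e12.4, 2.09, 1.66 and 2.34 for guide e20.1 and 2.17, 1.89 and 3.06 for guide e21.1. The groups did not overlap, although the shared sequence with Mndal leaves the split of reads between these genes uncertain. Ifi203 rose by 0.85 ± 0.13 (SE, adjusted p = 0.00032) against Renilla and by 0.75 ± 0.13 (SE, adjusted p = 0.0011) against mock on the log2 scale. Dhx58 encodes LGP2, which regulates the RNA sensors RIG-I and MDA5 (ENSMUSG00000017830.15, chr11:100694884-100704271, minus strand). Dhx58 was measured at 5.61, 4.57 and 4.67 FPKM in the 3 Renilla libraries and at 5.86, 5.36 and 4.03 FPKM in the 3 mock libraries. Dhx58 stood at 9.17, 7.80 and 9.82 FPKM for guide e12.3, 8.05, 7.96 and 8.96 for guide e12.4, 9.86, 8.04 and 8.86 for guide e20.1 and 9.33, 9.91 and 15.1 for guide e21.1. The controls ended at 5.86 FPKM and the guide libraries began at 7.80 FPKM. Dhx58 rose by 0.79 ± 0.13 (SE, adjusted p = 0.00061) against Renilla and by 0.77 ± 0.13 (SE, adjusted p = 0.00088) against mock on the log2 scale. RIG-I itself, encoded by Ddx58, had a log2 fold change of 0.33 ± 0.16 (SE, adjusted p = 0.21) against Renilla, from 7.08 ± 1.95 to 9.04 ± 1.42 FPKM. Ifih1, which encodes MDA5, had 0.25 ± 0.19 (SE, adjusted p = 0.46), and Eif2ak2, the RNA-activated kinase PKR, had 0.08 ± 0.11 (SE, adjusted p = 0.72).

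Of the 10 tested direct antiviral effectors, Ifitm1, Ifitm3 and Samhd1 rose against both controls and 7 passed against neither. The IFITM proteins sit in membranes and hinder the fusion of enveloped viruses. Ifitm1 (ENSMUSG00000025491.14, chr7:140967221-140969825, plus strand) was among the most abundant of the listed genes. Ifitm1 was measured at 86.4, 104 and 105 FPKM in the 3 Renilla libraries and at 99.2, 109 and 107 FPKM in the 3 mock libraries. Ifitm1 stood at 266, 357 and 111 FPKM for guide e12.3, 248, 241 and 226 for guide e12.4, 332, 424 and 296 for guide e20.1 and 377, 337 and 257 for guide e21.1. Replicate 3 of e12.3, at 111 FPKM, lay just above the highest control library, at 109 FPKM, and the next guide library was at 226 FPKM. Ifitm1 rose by 1.49 ± 0.23 (SE, adjusted p = 0.00047) against Renilla and by 1.39 ± 0.23 (SE, adjusted p = 0.00094) against mock on the log2 scale. Ifitm3 (ENSMUSG00000025492.6, chr7:141009586-141010770, minus strand) was less abundant. Ifitm3 was measured at 28.1, 23.9 and 27.2 FPKM in the 3 Renilla libraries and at 26.1, 24.5 and 23.5 FPKM in the 3 mock libraries. Ifitm3 stood at 48.4, 79.5 and 27.5 FPKM for guide e12.3, 69.8, 73.4 and 73.4 for guide e12.4, 60.6, 89.5 and 73.6 for guide e20.1 and 72.0, 69.2 and 43.7 for guide e21.1. Replicate 3 of e12.3 lay within the range of the controls, and the other 11 guide libraries above it. Ifitm3 rose by 1.21 ± 0.22 (SE, adjusted p = 0.0014) against Renilla and by 1.30 ± 0.22 (SE, adjusted p = 0.00083) against mock on the log2 scale. Their neighbour Ifitm2 overlapped between groups, with 301 ± 36.6 FPKM with the guides and 254 ± 59.2 in Renilla, and did not pass, with a log2 fold change of 0.26 ± 0.14 (SE, adjusted p = 0.26).

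Samhd1, which degrades the nucleotides that viruses need for reverse transcription, rose from 26.8 ± 1.10 FPKM in Renilla and 30.8 ± 3.22 in mock (SD, n = 3 each) to 45.1 ± 8.57 over the 12 guide libraries. Samhd1 rose by 0.71 ± 0.12 (SE, adjusted p = 0.0009) against Renilla and by 0.52 ± 0.12 (SE, adjusted p = 0.011) against mock on the log2 scale. Its groups did not overlap, and its call against mock was lost without mock replicate 2 (adjusted p = 0.074) or 3 (0.096). The remaining effectors overlapped between guides and controls. Isg20, an RNA exonuclease, had a log2 fold change of 0.54 ± 0.23 (SE, adjusted p = 0.15) against Renilla, Bst2, the membrane tether tetherin, 0.50 ± 0.21 (SE, adjusted p = 0.14), and Cmpk2, a mitochondrial nucleotide kinase, 0.42 ± 0.34 (SE, adjusted p = 0.49). Ifit2, a member of the IFIT family of antiviral proteins, had 0.32 ± 0.14 (SE, adjusted p = 0.16). Oas1a, which makes the messenger that activates RNase L, was measured at 18.3 ± 1.33 FPKM with the guides and 17.7 ± 2.95 in Renilla. Its 95% confidence interval, -0.12 to 0.22 on the log2 scale, included 0. For the RNA-editing enzyme Adar the log2 fold change was -0.08 ± 0.13 (SE, adjusted p = 0.77). Cmpk2 was called against mock without the 2 libraries that stood apart (adjusted p = 0.0073), where it was measured at 0.307 and 0.454 FPKM, and Bst2, at 59.1 and 69.7 FPKM there against 27.7 to 41.3 in the other 10 guide libraries, was also called against mock without them (0.047).

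ISG15 is a ubiquitin-like protein that is attached to other proteins during the response. Of the 5 tested genes around it, Parp14 rose against both controls, Parp9 against Renilla alone, and Trim25, Dtx3l and Herc6 passed against neither. Parp14 is a mono-ADP-ribosyltransferase (ENSMUSG00000034422.14, chr16:35832874-35871544, minus strand). Parp14 was measured at 1.79, 1.81 and 2.09 FPKM in the 3 Renilla libraries and at 1.96, 1.76 and 2.02 FPKM in the 3 mock libraries. Parp14 stood at 3.79, 3.71 and 2.77 FPKM for guide e12.3, 4.33, 4.35 and 4.15 for guide e12.4, 4.39, 2.75 and 4.60 for guide e20.1 and 4.85, 4.35 and 4.06 for guide e21.1. The highest control library was at 2.09 FPKM and the lowest guide library at 2.75 FPKM. Parp14 rose by 0.78 ± 0.12 (SE, adjusted p = 0.00028) against Renilla and by 0.77 ± 0.12 (SE, adjusted p = 0.00034) against mock on the log2 scale. Parp9, the partner of the ubiquitin ligase Dtx3l, had a log2 fold change of 0.39 ± 0.11 (SE, adjusted p = 0.041) against Renilla and 0.28 ± 0.11 (SE, adjusted p = 0.17) against mock. Its call was lost in 13 of 27 alternative settings, with adjusted p = 0.28 without Renilla replicate 1. Dtx3l, which overlaps Parp9 on the opposite strand, had 0.16 ± 0.12 (SE, adjusted p = 0.43). Trim25, a ubiquitin ligase that activates RIG-I, stood at 4.86 and 5.61 FPKM in the 2 libraries that stood apart and at 1.15 to 2.97 FPKM in the other 10 guide libraries. Its log2 fold change was 0.59 ± 0.24 (SE, adjusted p = 0.13) against Renilla, and it was called without those 2 libraries (adjusted p = 0.029). Herc6, the main ISG15 ligase of the mouse, had -0.10 ± 0.15 (SE, adjusted p = 0.74).

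The interferon-inducible GTPases act on membranes that enclose pathogens. Of the 5 tested, the guanylate-binding proteins Gbp7 and Gbp3 rose against both controls, Igtp rose against Renilla alone, and Irgm1 and Ifi47 passed against neither. Gbp7 was measured at 3.64, 3.43 and 4.20 FPKM in the 3 Renilla libraries and at 4.60, 3.37 and 3.97 FPKM in the 3 mock libraries. Gbp7 stood at 9.30, 7.54 and 5.34 FPKM for guide e12.3, 9.05, 8.56 and 8.55 for guide e12.4, 9.41, 5.55 and 8.86 for guide e20.1 and 10.3, 8.94 and 9.45 for guide e21.1. All guide libraries of Gbp7 (ENSMUSG00000040253.15, chr3:142530342-142550149, plus strand) lay above the controls, with e12.3 replicate 3 lowest. Gbp7 rose by 0.97 ± 0.14 (SE, adjusted p = 0.00028) against Renilla and by 0.91 ± 0.14 (SE, adjusted p = 0.00055) against mock on the log2 scale. Gbp3 was measured at 4.59, 2.48 and 2.72 FPKM in the 3 Renilla libraries and at 3.61, 2.25 and 2.17 FPKM in the 3 mock libraries. Gbp3 stood at 7.48, 6.83 and 2.70 FPKM for guide e12.3, 11.2, 6.64 and 6.09 for guide e12.4, 8.22, 6.88 and 6.20 for guide e20.1 and 10.9, 6.85 and 5.81 for guide e21.1. For Gbp3 (ENSMUSG00000028268.14, chr3:142560026-142573209, plus strand) e12.3 replicate 3 lay within the controls and the other 11 guide libraries above them. Gbp3 rose by 0.91 ± 0.25 (SE, adjusted p = 0.025) against Renilla and by 1.11 ± 0.25 (SE, adjusted p = 0.008) against mock on the log2 scale. The call against Renilla did not hold on leaving out Renilla replicate 2 (adjusted p = 0.14) or 3 (0.11) and on leaving out guide e12.4 (0.056), and that against mock without mock replicate 2 (0.066) or 3 (0.07). Igtp, an immunity-related GTPase, had a log2 fold change of 0.79 ± 0.18 (SE, adjusted p = 0.0081) against Renilla and 0.54 ± 0.18 (SE, adjusted p = 0.072) against mock, with its 2 highest values, 7.06 and 9.11 FPKM, in the libraries that stood apart. Its relatives Irgm1 and Ifi47 had 0.25 ± 0.12 (SE, adjusted p = 0.2) and 0.20 ± 0.22 (SE, adjusted p = 0.62) against Renilla.

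Among the 4 other tested genes, Ifi27l2a and Xaf1 rose against both controls. Ifi27l2a belongs to the ISG12 family of small hydrophobic proteins (ENSMUSG00000079017.3, chr12:103442167-103443680, minus strand). Ifi27l2a was measured at 2.54, 1.53 and 2.27 FPKM in the 3 Renilla libraries and at 1.75, 2.20 and 0.837 FPKM in the 3 mock libraries. Ifi27l2a stood at 7.04, 11.6 and 3.66 FPKM for guide e12.3, 7.99, 8.51 and 7.13 for guide e12.4, 7.70, 13.7 and 11.4 for guide e20.1 and 13.5, 11.97 and 12.03 for guide e21.1. The groups did not overlap, and e12.3 replicate 3 was the lowest guide library. Ifi27l2a rose by 1.73 ± 0.23 (SE, adjusted p = 0.00011) against Renilla and by 2.01 ± 0.23 (SE, adjusted p = 2.6e-05) against mock on the log2 scale. Xaf1 binds and antagonises the caspase inhibitor XIAP (ENSMUSG00000040483.15, chr11:72301629-72313733, plus strand). Xaf1 was measured at 0.9004, 0.404 and 0.495 FPKM in the 3 Renilla libraries and at 0.606, 0.603 and 0.582 FPKM in the 3 mock libraries. Xaf1 stood at 1.26, 2.25 and 1.41 FPKM for guide e12.3, 2.95, 2.09 and 1.76 for guide e12.4, 3.46, 2.33 and 2.85 for guide e20.1 and 3.31, 3.25 and 3.37 for guide e21.1. Every guide library lay above every control library. Xaf1 rose by 1.12 ± 0.14 (SE, adjusted p = 5.1e-05) against Renilla and by 1.11 ± 0.14 (SE, adjusted p = 6.1e-05) against mock on the log2 scale. Trim30a, a TRIM protein that dampens Toll-like receptor signalling, had a log2 fold change of 0.54 ± 0.17 (SE, adjusted p = 0.052) against Renilla, just outside the threshold. In the 2 libraries that stood apart it was measured at 4.42 and 6.35 FPKM, against 8.20 to 10.9 in the other 10 guide libraries and 5.34 to 6.44 in the controls, and without them it was called (adjusted p = 7.3e-06). Ifi35 had 0.13 ± 0.12 (SE, adjusted p = 0.55).

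**Figure D2:**
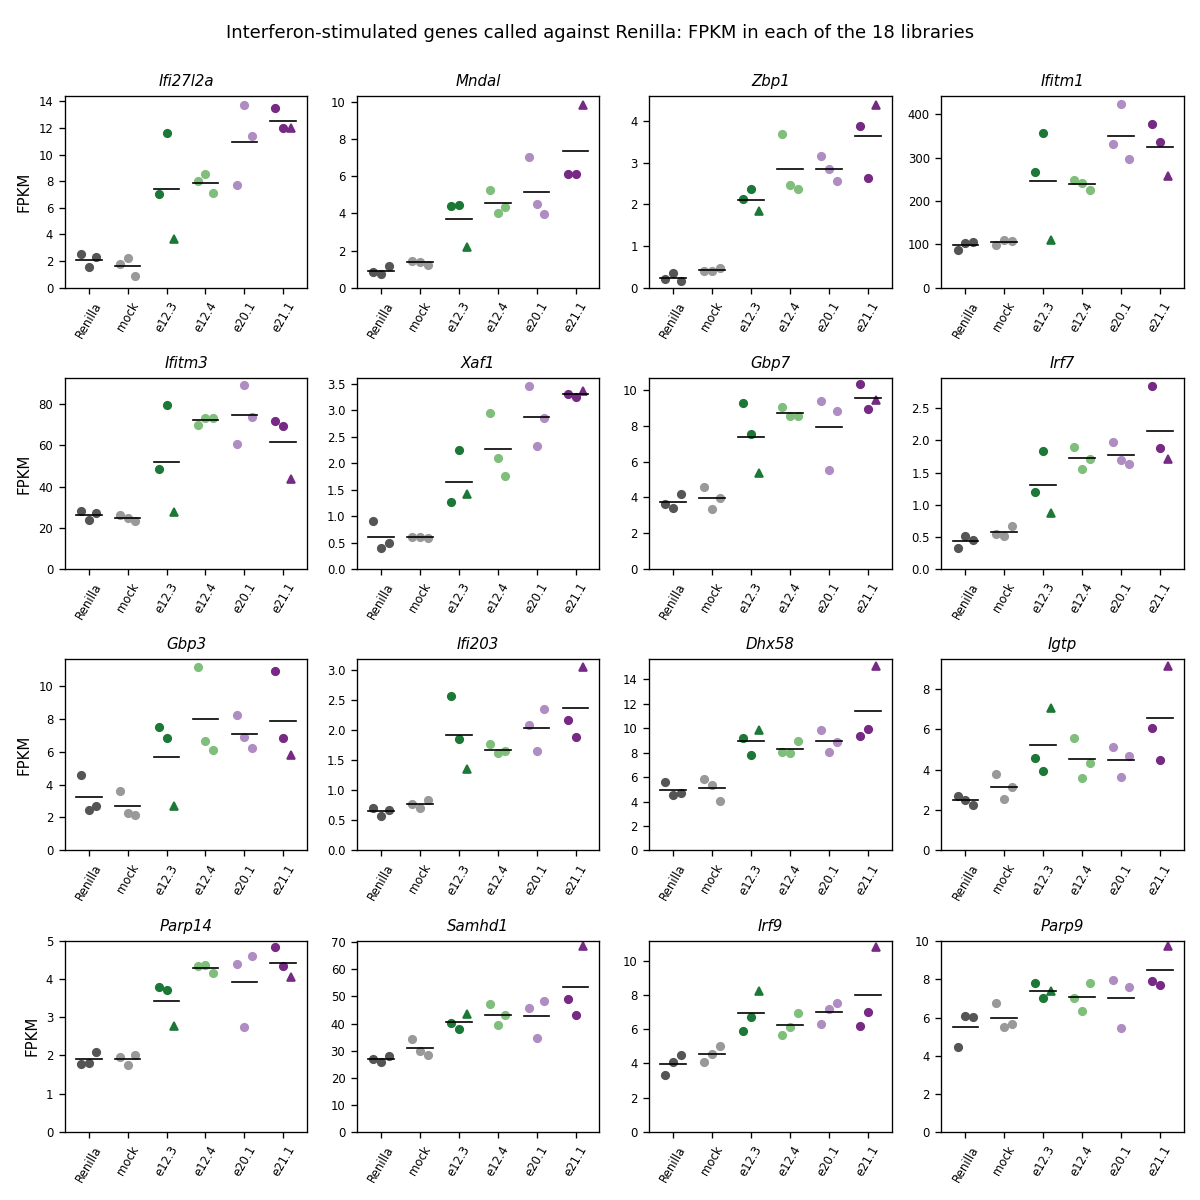
FPKM of the 16 genes called against Renilla (y axis of each panel) in the 18 libraries by group (x axis), with lines for group means and triangles for the replicate 3 libraries of e12.3 and e21.1. In 12 of the panels every guide library lies above all 6 control libraries, and the triangle of e12.3 falls to the level of the controls for Ifitm3 and Gbp3.

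Every guide library lay above every Renilla and mock library for 12 of the 36 genes, and below for none, beside 4.92 and 1.59% of all tested genes. Of the 32 genes with a control mean of at least 1 FPKM it was 8, beside 4.42% of all genes with such a mean. Without the 2 libraries that stood apart the count was 15, beside 7.34%. The 12 genes are those called against both controls except Ifitm3 and Gbp3.

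The 13 genes under 1 FPKM include several that are classic readouts of interferon. All 13 had a higher mean over the guide libraries than in Renilla and than in mock. Some of these differences were small and near 0, as for Ifi44, with 0.0196 FPKM over the guide libraries and 0.0166 in Renilla. Isg15, the ubiquitin-like modifier, lies at ENSMUSG00000035692.6, chr4:156199424-156200818, minus strand. Isg15 was measured at 0.798, 0.260 and 0.490 FPKM in the 3 Renilla libraries and at 0.528, 0.627 and 0.321 FPKM in the 3 mock libraries. Isg15 stood at 1.16, 0.869 and 0.927 FPKM for guide e12.3, 1.48, 0.985 and 1.09 for guide e12.4, 1.46, 1.31 and 0.743 for guide e20.1 and 1.44, 0.777 and 1.78 for guide e21.1. The guide libraries reached down to 0.743 FPKM and the controls up to 0.798. Without the filter its log2 fold change was 0.52 ± 0.14 (SE, adjusted p = 0.052) against Renilla and 0.53 ± 0.14 (adjusted p = 0.054) against mock, so it did not pass.

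Without the filter, 3 of the 13 were called higher against both controls, and they are the GTPase genes Mx1 and Gbp2 and the RNA-binding antiviral gene Ifit3. Of all 23899 genes 3.82% were called higher against Renilla and 3.35% against mock in that fit. Mx1 stood at 0.328 to 1.14 FPKM (median 0.901) with the guides and at 0.133 to 0.286 in the controls, without overlap, and its adjusted p was 0.0033 and 0.0029. Gbp2 stood at 0.282 to 0.689 and 0.0624 to 0.171 FPKM, also without overlap (adjusted p = 0.0091 and 0.003). Ifit3 reached only 0.264 FPKM with the guides and 0.0375 in the controls, and 11 of 12 guide libraries and not e12.3 replicate 3 lay above all controls (adjusted p = 0.027 and 0.048). Usp18, the protease that removes ISG15, was called against mock (adjusted p = 0.033) and not against Renilla (0.14). Ifi204, a PYHIN gene beside Mndal, had 0.872 ± 0.180 FPKM with the guides and 0.494 ± 0.271 in Renilla (adjusted p = 0.081).

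The other 7 low genes passed against neither control, nor did Ifi204. Ifit1, of the same family as Ifit3, had a mean of 0.256 FPKM with the guides, and Rsad2, which encodes viperin, 0.207. Oasl2 had 0.123, Rtp4 0.0628 and Oasl1 0.0548 FPKM, with Oasl1 listed at 0 in all 3 Renilla libraries. Ifi44 and Iigp1 stayed at or under 0.0470 FPKM in all 18 libraries.

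**Figure D3:**
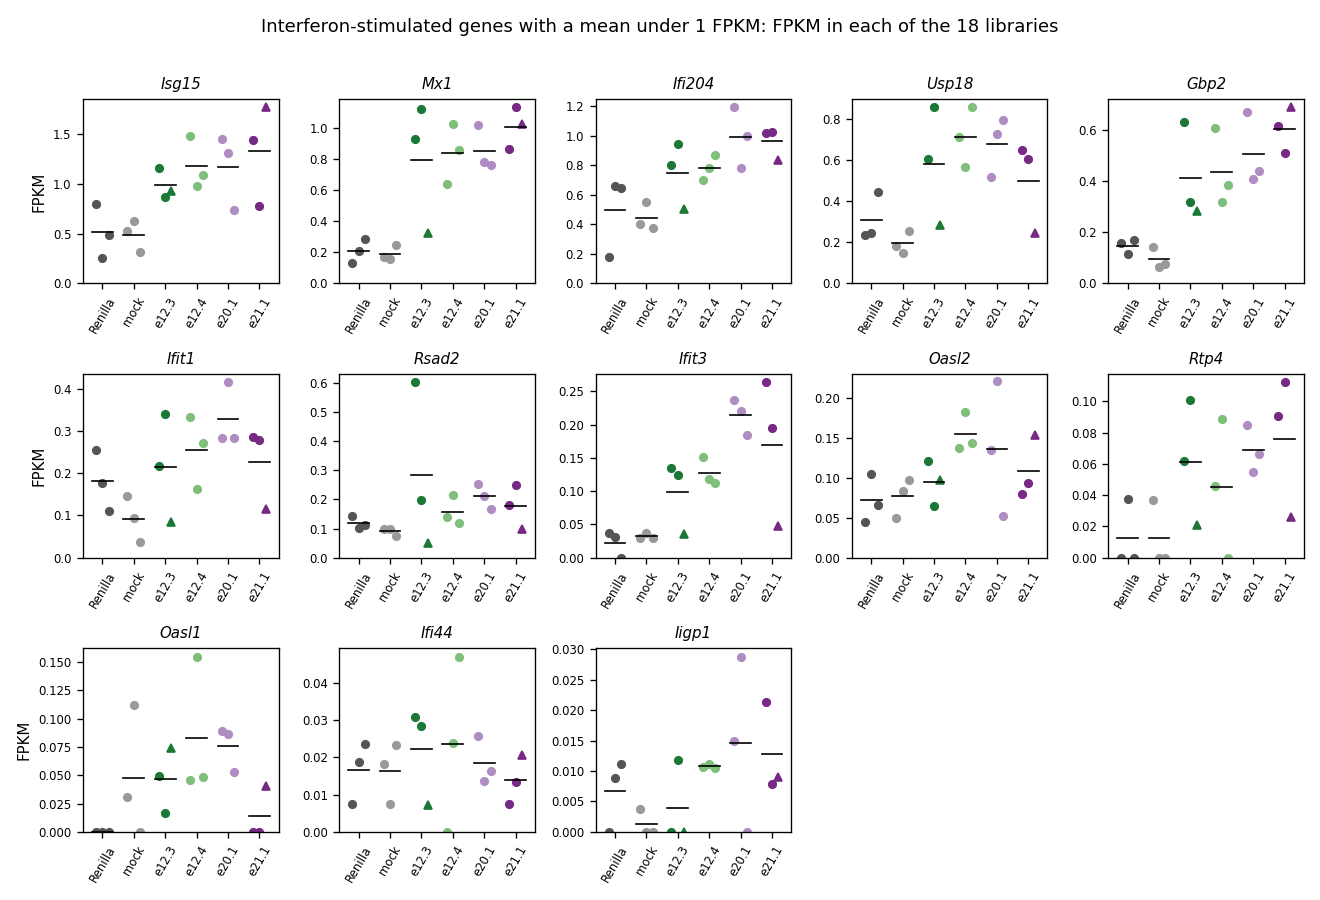
FPKM of the 13 genes under a mean of 1 FPKM (y axis of each panel, scales differ) in the 18 libraries by group (x axis), with lines for group means and triangles for the replicate 3 libraries of e12.3 and e21.1. Mx1 and Gbp2 separate guides from controls without overlap, while Isg15, the most abundant, overlaps between 0.743 and 0.798 FPKM.

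Each guide was also tested alone against Renilla. Genes called higher numbered 11 of 36 with e12.3 (3.2% of all genes called, 3.03% higher and 0.173% lower), 12 for e12.4 (7.09, 5.57 and 1.52%), 13 for e20.1 (5.68, 4.61 and 1.06%) and 17 for e21.1 (9.51, 7.06 and 2.45%), and none was lower. Against mock the counts were 8 for e12.3 (2.94% called, 2.82% higher and 0.121% lower), 12 for e12.4 (6.48, 5.22 and 1.26%), 12 for e20.1 (5.32, 4.41 and 0.909%) and 15 for e21.1 (7.26, 5.91 and 1.35%), again with none lower. The 4 tests share their control libraries, so agreement between guides is no independent evidence. Ifi27l2a, Zbp1, Xaf1, Irf7, Ifitm1, Dhx58, Gbp7, Parp14, Ifi203 and Mndal were called with all 4 guides against Renilla, and all of these but Irf7 and Ifitm1 also with all 4 against mock. Among them Zbp1, Xaf1, Irf7 and Ifi203 entered the tested set through their levels with the guides. These genes are part of each count against Renilla above. Zbp1, Xaf1 and Ifi203 are also part of each count against mock, and Irf7 of those with e12.4, e20.1 and e21.1. Neither set of counts is support for these genes, and the counts were not recomputed without them. The share of all genes called with all 4 guides was not computed. Zbp1 had log2 fold changes against Renilla of 1.33, 1.62, 1.64 and 1.89 for the guides in the order used above. Mndal had 1.25, 1.54, 1.66 and 2.10, and Ifi27l2a 1.34, 1.52, 1.92 and 2.13.

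Of the 14 genes called against both controls, 11 had their highest guide mean with e21.1 and 10 their lowest with e12.3, which are the guides that hold the libraries that stood apart. The same counts were not made over all genes. Of all tested genes, too, the share called higher against Renilla was largest with e21.1 (7.06%) and smallest with e12.3 (3.03%). Ifitm3 was not highest with e21.1, at 61.6 ± 15.6 FPKM with e21.1 and 74.6 ± 14.4 with e20.1 (SD, n = 3 each). It was not called with e12.3, where the log2 fold change was 0.82 ± 0.27 (SE, adjusted p = 0.15). Trim25, Parp9, Igtp and Gbp3 were called against Renilla with e21.1 only, with log2 fold changes of 1.04, 0.55, 1.07 and 1.04, but a call with 1 guide and not another is no test of their difference. Gbp3 had 1.06 with e12.4 (adjusted p = 0.052), and against mock it was called with e12.4, e20.1 and e21.1. The e12.3 calls were the least stable, with 3 to 11 genes called against Renilla on leaving out single libraries.

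The guides e20.1 and e21.1 were compared directly with e12.3 and e12.4, pairs set by the shared start of their names. None of the 36 genes and none of all 11550 genes passed the test (0% called), and at an unadjusted p under 0.05 there were 5 of 36 and 179 of 11550. The 5 genes were Ifi27l2a, Ifitm1, Xaf1, Mndal and Zbp1, all of them higher with e20.1 and e21.1. Ifi27l2a differed by 0.59 on the log2 scale (95% confidence interval 0.15 to 1.04), Ifitm1 by 0.54 (0.10 to 0.98), Xaf1 by 0.49 (0.23 to 0.75) and Mndal by 0.49 (0.14 to 0.83). Their adjusted p-values were near 1, so these differences are not called. The difference was above 0 for 29 of the 36 genes and for 49.5% of all genes, with a median of 0.12 over the 36 and 0.07 without the 2 libraries that stood apart. For Irf9 the interval was -0.10 to 0.40 and for Gbp7 -0.17 to 0.38, which does not show that the pairs act alike.

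**Figure D4:**
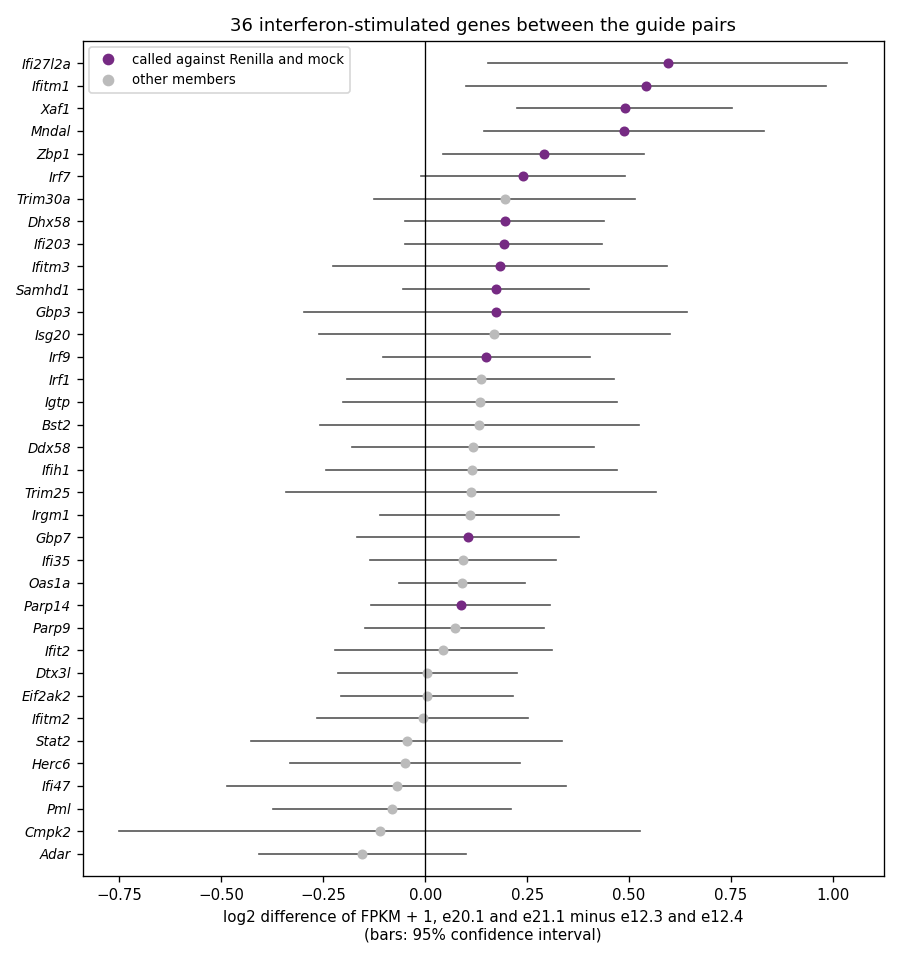
Difference of the 36 tested genes between guide pairs, as the log2 difference of FPKM + 1 for e20.1 and e21.1 minus e12.3 and e12.4 (x axis) by gene (y axis), with bars for the 95% confidence interval. Purple points are the genes called against both controls, from 0.59 for Ifi27l2a downwards, and no gene passed an adjusted p under 0.05.

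Between mock and Renilla none of the 36 genes and none of all genes was called (0%), and at an unadjusted p under 0.05 there were 0 and 127. The log2 difference of mock minus Renilla ran from -0.35 for Cmpk2 to 0.30 for Mndal, with a median of 0.06. Ifi27l2a differed by -0.29 (-0.91 to 0.34), Zbp1 by 0.20 (-0.15 to 0.55) and Irf7 by 0.14 (-0.21 to 0.49).

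The 2 libraries that stood apart did not move the genes in 1 direction. In e12.3 replicate 3, 15 of the 36 genes lay below the range of the other 10 guide libraries and 9 above it. Of all 11550 tested genes 2518 lay below that range and 3371 above it. Of the 14 genes called against both controls, Ifi27l2a, Zbp1, Irf7, Ifitm1, Ifitm3, Gbp3, Gbp7, Ifi203 and Mndal lay below and Irf9 above. The mean over these 14 genes, as log2(FPKM + 1) minus the mean of the controls, was 0.50 there and 0.93 to 1.35 in the other 11 guide libraries. These genes were picked as higher with the guides, so a mean above the controls was set in advance. Over all 36 tested genes, which include those that entered through the guides, the mean was 0.33 in e12.3 replicate 3 and 0.50 to 0.77 in the other 11. In e21.1 replicate 3, 15 genes lay above the range of the other 10 guide libraries and 7 below, the latter being Ifitm2, Ifitm3, Gbp3, Ifi47, Herc6, Trim30a and Cmpk2. Of all 11550 tested genes 3327 lay above that range and 2839 below it. Irf9, Isg20, Ifih1, Bst2, Trim25, Dtx3l, Igtp and Pml were higher in both of these libraries than in all 16 others, which is 22.2% of the 36 genes beside 15.9% of all tested genes. Set against the other 10 guide libraries alone, the shares higher in both were 22.2 and 22.1%. Ifitm2, Ifitm3, Gbp3, Ifi47, Trim30a and Cmpk2 were lower in both than in the other 10 guide libraries, which is 16.7% beside 16.2% of all tested genes. Of these, Ifi47 and Cmpk2 were also lower in both than in all 16 others, which is 5.56% beside 11.4%.

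**Figure D5:**
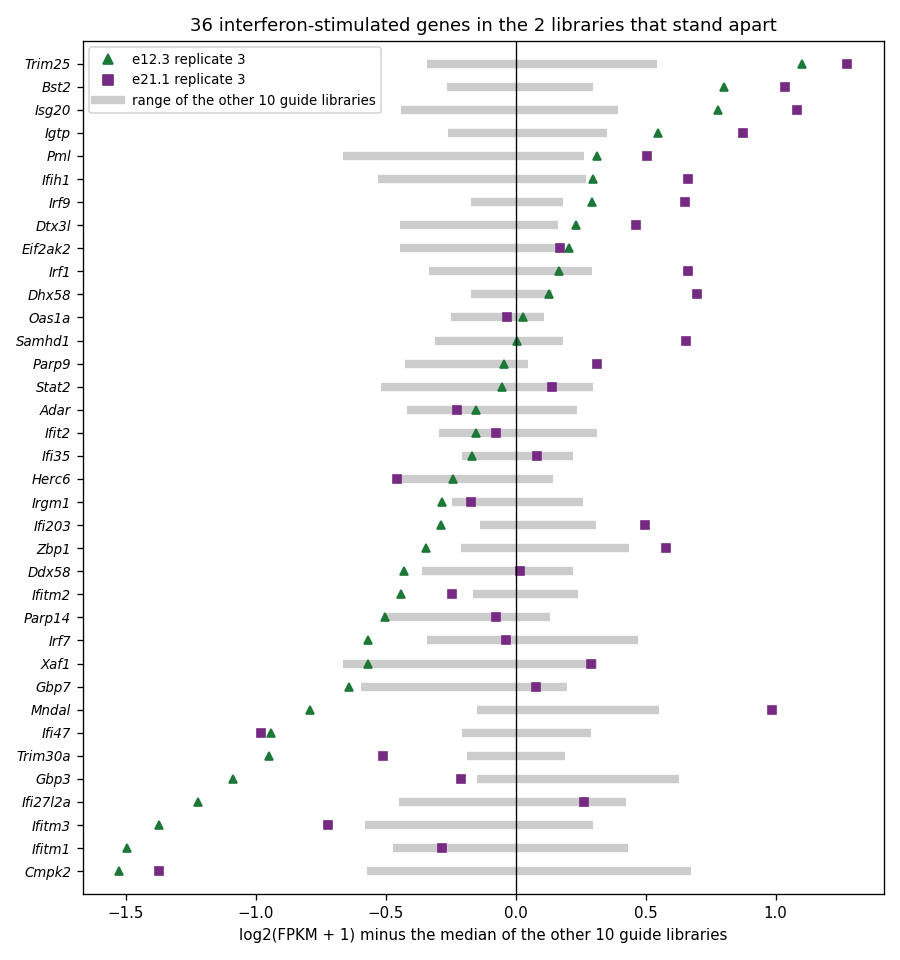
Levels of the 36 tested genes in e12.3 replicate 3 (triangles) and e21.1 replicate 3 (squares), as log2(FPKM + 1) minus the median of the other 10 guide libraries (x axis) by gene (y axis), with grey bars for the range of those 10. Trim25, Bst2 and Isg20 lie above the bars in both libraries, Ifitm2, Ifitm3, Gbp3, Cmpk2, Ifi47 and Trim30a below them in both, and Mndal below in the first and above in the second.

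Several of the genes are neighbours, and neighbours did not always share a call. On chromosome 7, Ifitm1 and Ifitm3 rose and Ifitm2, which lies beside Ifitm1, passed against neither control. On chromosome 3, Gbp7, Gbp3 and Gbp2 lie in a row, Gbp7 and Gbp3 rose, and Gbp2 was called only when the filter was dropped. On chromosome 16, Parp14 rose against both controls, Parp9 against Renilla alone and Dtx3l against neither. On chromosome 1, Ifi204, Mndal and Ifi203 all had higher means with the guides, with Ifi204 under 1 FPKM and not called. The pairs Irgm1 and Ifi47 on chromosome 11 and Rsad2 and Cmpk2 on chromosome 12 held no called gene. Paralogues in such clusters can share reads, so their separate levels are uncertain.

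The upstream pathway was described with 48 further genes, of which 37 were analysed and 32 tested. Of these, 13 were higher and 1 lower against Renilla, 9 were higher and none lower against mock, and the same 9 passed against both. Over all tested genes 7.77% were higher and 3.21% lower against Renilla, and 6.84 and 2.16% against mock. The median change of the 32 was 0.27 against Renilla and 0.20 against mock. The 10 interferon genes of this list were not analysed here. Of the receptor chains, Ifnar2 rose, with 85.3 ± 17.0 FPKM over the 12 guide libraries, 59.2 ± 1.30 in Renilla and 62.4 ± 1.76 in mock and a log2 fold change of 0.50 ± 0.13 (SE, adjusted p = 0.016) against Renilla and 0.42 ± 0.13 (adjusted p = 0.047) against mock. Ifnar1 did not pass, with 33.4 ± 3.46 FPKM over the 12 guide libraries, 30.02 ± 5.14 in Renilla and 30.9 ± 0.991 in mock and a log2 fold change of 0.16 ± 0.10 (SE, adjusted p = 0.38) against Renilla and 0.10 ± 0.10 (adjusted p = 0.65) against mock. The kinase Jak1 had a log2 fold change of 0.31 ± 0.07 (SE, adjusted p = 0.0069) against Renilla and 0.22 ± 0.07 (adjusted p = 0.056) against mock, and Tyk2 had 0.30 ± 0.10 (SE, adjusted p = 0.073) against Renilla and 0.20 ± 0.10 (adjusted p = 0.29) against mock.

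Other interferon regulatory factors showed the largest changes of this pathway list. Irf8, a factor of monocyte and dendritic cell development, stood at 10.6, 11.1 and 11.4 FPKM in Renilla and 7.47, 9.82 and 7.48 in mock. Irf8 stood at 28.1, 40.3 and 42.5 FPKM for guide e12.3, 38.5, 42.4 and 36.3 for guide e12.4, 37.3, 37.3 and 35.0 for guide e20.1 and 45.1, 39.9 and 97.4 for guide e21.1. The groups did not overlap, and e21.1 replicate 3 was far above the rest. Its log2 fold change was 1.81 ± 0.19 (SE, adjusted p = 1.2e-05) against Renilla and 2.20 ± 0.19 (adjusted p = 1.8e-06) against mock. Irf5, which acts below Toll-like receptors, rose from 4.38 ± 0.726 FPKM in Renilla and 3.97 ± 0.433 in mock to 14.7 ± 3.17 over the guide libraries, by 1.52 ± 0.13 (SE, adjusted p = 1.1e-06) against Renilla and 1.63 ± 0.13 (adjusted p = 5.4e-07) against mock. Tlr7, the endosomal RNA receptor, rose by 1.17 ± 0.20 (SE, adjusted p = 0.00084) against Renilla and 1.15 ± 0.20 (adjusted p = 0.0011) against mock from 0.171 FPKM in Renilla, so it passed the filter through the guide libraries. Its chaperone Unc93b1 rose by 0.63 ± 0.14 (SE, adjusted p = 0.0058) against Renilla and 0.55 ± 0.14 (adjusted p = 0.016) against mock. The adaptor Myd88 rose by 0.38 ± 0.07 (SE, adjusted p = 0.00091) against Renilla and 0.42 ± 0.07 (adjusted p = 0.00044) against mock. Of the 8 tested inhibitors of the pathway 3 rose against both controls, 1 fell against Renilla alone and 4 passed against neither. The suppressor Socs1 rose by 0.64 ± 0.16 (SE, adjusted p = 0.014) against Renilla and 0.55 ± 0.16 (adjusted p = 0.037) against mock, and Socs3 by 0.82 ± 0.18 (SE, adjusted p = 0.0071) against Renilla and 1.03 ± 0.18 (adjusted p = 0.0013) against mock. The phosphatase Ptpn6 rose by 0.37 ± 0.10 (SE, adjusted p = 0.029) against Renilla and 0.50 ± 0.10 (adjusted p = 0.0047) against mock. The inhibitor lower against Renilla was Irf2bp1, a corepressor of Irf2, with -0.42 ± 0.09 (SE, adjusted p = 0.0041) against Renilla and -0.24 ± 0.09 (adjusted p = 0.098) against mock.

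A second list held 64 interferon-stimulated genes outside the 49, of which 63 were analysed and 37 tested. Against Renilla 13 were higher, against mock 11, 11 against both, and none was lower, with a median of 0.33 against Renilla. The shares of all tested genes called higher in these comparisons were 7.77 and 6.84%. The 5 called genes with the largest change were Slfn2, Ifitm6, Lgals3bp, Ly6e and Cd274. Slfn2, a regulator of immune cell quiescence, stood at 4.59, 4.90 and 5.45 FPKM in Renilla and 4.10, 4.39 and 4.14 in mock. Slfn2 stood at 24.98, 34.5 and 13.2 FPKM for guide e12.3, 32.5, 33.1 and 30.02 for guide e12.4, 32.9, 42.4 and 32.0 for guide e20.1 and 40.5, 40.1 and 27.9 for guide e21.1. All guide libraries lay above the controls, with e12.3 replicate 3 lowest, and the log2 fold change was 2.42 ± 0.19 (SE, adjusted p = 5.0e-07) against Renilla and 2.62 ± 0.19 (adjusted p = 2.3e-07) against mock. Ifitm6, a further IFITM gene, stood at 0.647 FPKM in Renilla and 0.650 in mock and passed the filter through the guide libraries, so it had to differ. Ifitm6 changed by 1.44 ± 0.18 (SE, adjusted p = 5.1e-05) against Renilla and 1.46 ± 0.18 (adjusted p = 4.8e-05) against mock, and Lgals3bp, a secreted glycoprotein, by 1.14 ± 0.15 (SE, adjusted p = 6.6e-05) against Renilla and 1.10 ± 0.15 (adjusted p = 0.00011) against mock. Ly6e, a surface protein that restricts viral entry, was the most abundant of these with 914 ± 96.0 FPKM over the 12 guide libraries, 473 ± 12.8 in Renilla and 508 ± 17.3 in mock, a log2 fold change of 0.94 ± 0.08 (SE, adjusted p = 2.1e-06) against Renilla and 0.84 ± 0.08 (adjusted p = 6.5e-06) against mock. Cd274, which encodes the checkpoint ligand PD-L1, changed by 0.88 ± 0.12 (SE, adjusted p = 0.00014) against Renilla and 0.81 ± 0.12 (adjusted p = 0.00036) against mock.

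Some markers of monocytes and macrophages also rose with the guides. Of 13 such markers 9 were tested and 5 rose against both controls, namely Ctss, Csf1r, Cd68, Adgre1 and Mpeg1, and none fell. The rest of the 9 passed against neither control. Over all tested genes 7.77% were higher against Renilla and 6.84% against mock. Csf1r, the receptor that defines this lineage, had 11.8 ± 2.76 FPKM over the 12 guide libraries, 2.25 ± 0.177 in Renilla and 1.99 ± 0.129 in mock, and its log2 fold change was 1.94 ± 0.17 (SE, adjusted p = 2.3e-06) against Renilla and 2.06 ± 0.17 (adjusted p = 1.2e-06) against mock. The sum of the 13 markers, in which Ly6c2 has the largest share, ran from 825 to 942 FPKM in Renilla, 808 to 860 in mock, 723 to 1021 with e12.3, 876 to 953 for e12.4, 750 to 1092 for e20.1 and 736 to 968 for e21.1. These sums overlapped between guides and controls. No marker of the list was at 0 in all libraries, and Cx3cr1 was low. The part of the rise of the 5 called markers in the interferon-stimulated genes was not tested. Of the markers of plasmacytoid dendritic cells, which make much interferon, 5 were analysed here. Siglech, Ccr9 and Pacsin1 were near 0, at most at 0.214, 0.0747 and 0.123 FPKM. The 2 tested ones were expressed, and none was called. The sum of the 5 ran from 29.3 to 37.2 FPKM in Renilla and 34.6 to 36.3 in mock. With the guides it ran from 31.8 to 67.1 for e12.3 and 34.5 to 40.5 for e12.4. For e20.1 it was 30.3 to 36.8 and for e21.1 34.8 to 60.5 FPKM. Of the lymphoid list 3 of 7 were tested and Nkg7 fell, while Cd3e stayed at or under 0.0518 FPKM. Of the stromal and endothelial list 2 of 6 were tested and Pecam1 rose, and Col1a1 and Cdh5 stayed at or under 0.249 FPKM. Of the 8 genes on the myeloid leukaemia progenitor list, 2 were higher and 1 lower against Renilla, and 1 higher and 1 lower against mock. Over all tested genes 3.21 and 2.16% were lower. Ptprc rose and Mpo, a granule enzyme, fell against both controls. Mpo had 345 ± 262 FPKM over the 12 guide libraries, 1206 ± 152 in Renilla and 1176 ± 63.9 in mock. The sum of the 8, which includes Mpo, ran from 1804 to 1903 FPKM in Renilla and 1831 to 1872 in mock. With the guides it ran from 1112 to 1558 for e12.3, 915 to 1006 for e12.4, 991 to 1146 for e20.1 and 915 to 1229 for e21.1.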

How the data were processed

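Poly(A) RNA was extracted with TRIzol and made into libraries with NEBNext Ultra II Directional kits, per the labels' protocols. The authors deposited FPKM values, as 1 series table (23899 genes, 18 libraries) and 15 separate tables that differ from it by at most 3.3e-06 FPKM. Per the submitters' processing notes, bcl2fastq 2.22.0.422, Salmon 0.13.0, R 3.5.3, DESeq2 1.22.1 and mm10 were used, with no role given.

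Genes whose mean reached 1 FPKM (11550) entered limma-trend as log2(FPKM + 1), using limma 3.58.1 under R 4.3.3, where 6 group means share one estimate of spread, with Benjamini-Hochberg adjustment over all tested genes. The 4 guides weigh equally when combined. The fits were tested on simulated data. Depth was estimated from the steps of low FPKM values in 1473 genes, and 81.4 to 87.3% of these values per library came within 10% of whole reads (20% if spread evenly). Positions are from GENCODE vM21 and promoters from RefSeq.

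The members, lists and tests were chosen with earlier results of these data known. Every tested member is named. Values in every library are given for up to 12 members called against both controls, largest change against Renilla first, and for Irf7, Irf9, Stat2 and Isg15. Of the pathway list Ifnar1, Ifnar2, Jak1, Tyk2 and the genes called against both controls are named, and of the second list the 5 called genes of largest change; some genes of these lists are not reported here. Other genes (Irf2bp1, the markers and those in the closing observations) were picked after their values were seen. Alternatives were another pseudocount, other filters, upper-quartile scaling, only the groups compared, a replicate block, pooled controls, and libraries or guides left out.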

Additional observations from a re-analysis of the deposited data

How the results depend on the processing

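Across 189 recomputed counts of called genes, 166 stayed within 1.5 times the reported count and none reversed. Leaving out 1 library at a time gave 14 to 17 genes for the 4 guides against Renilla and 11 to 16 against mock. Against Renilla the same ranges were 3 to 11 for e12.3, 8 to 12 for e12.4, 10 to 13 for e20.1 and 14 to 17 for e21.1, and against mock 2 to 9, 8 to 10, 9 to 12 and 12 to 16. With no filter e12.3 had a count of 4 against Renilla and 3 against mock, and with only the groups compared in the model 1 and 1. Without the 2 libraries that stood apart, the count of e12.3 against mock was 13. The filter of 5 FPKM in 3 libraries, which tests fewer genes, gave 9 for the 4 guides against mock, 6 for e12.3, 7 for e12.4, 8 for e20.1 and 11 for e21.1 against Renilla, and 3, 7 and 7 for e12.3, then e12.4, then e20.1 against mock. The cause of the other changes was not tested. Of the 16 genes called against Renilla 14 kept the call in all of up to 27 settings, the exceptions being Gbp3 and Parp9, and of the 14 called against mock 11 did in up to 26, the exceptions being Irf9, Gbp3 and Samhd1.

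The replicate numbers do not pair the libraries by the labels, and only 26 of 45 same-numbered pairs correlated above 0.1 (median 0.12, beside -0.04 for differently numbered ones), although 17 of 18 libraries correlated best with a same-numbered one. With the replicate number as a replicate block, the 4 guides gave 18 genes against Renilla (9.85% of all genes higher) and 15 against mock (8.46%). The genes gained were Ifit2 (adjusted p = 0.032) and Trim30a (0.025) against Renilla and Igtp (0.021) against mock. The counts were 13 for e12.3, 15 for e12.4, 16 for e20.1 and 19 for e21.1 against Renilla (4.21, 7.22, 6.03 and 9.26% of all genes higher) and 11, 14, 14 and 15 against mock (3.38, 6.65, 5.64 and 7.57%), and 0 between guide pairs and between mock and Renilla. Depth limits what can be said of the genes listed at or near 0, such as Ifi44 and Iigp1.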

Other observations

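Beyond the genes already described, several interferon-stimulated genes of the second list lay outside the range of all other libraries in the 2 libraries that stood apart (the replicate 3 libraries of e12.3 and e21.1, in this order below), and they were picked after their values were seen. Gbp8, a guanylate-binding protein, was measured at 3.40 and 7.27 FPKM there and at no more than 0.522 FPKM in the other 16 libraries. Gbp4 stood at 1.16 and 2.29 FPKM, with at most 0.444 elsewhere, and Gbp6 at 0.769 and 2.44 FPKM, with at most 0.199 elsewhere. Psmb8, a subunit of the immunoproteasome, stood at 202 and 252 FPKM and elsewhere at 94.0 to 192. Of 62 genes of this list that the pathway list does not hold, 10 (16.1%) were higher in both libraries than in all 16 others. The same held for 9 of 37 pathway genes (24.3%). The share was 9.18% of all genes and 15.9% of the tested genes. Both lists hold tested genes and genes under the filter, so neither share is of a like set. Lower in both than in all 16 others were 2 of the 62 genes and 0 of the 37, beside 7.13% of all genes and 11.4% of tested genes. They were Plscr1, a phospholipid scramblase, at 5.44 and 6.10 FPKM against 7.72 to 13.6, and Slfn8 at 0.460 and 0.481 FPKM against 0.579 to 1.15.

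In the same libraries Ifnar2 stood at 106 and 132 FPKM, against 72.5 to 83.8 in the other 10 guide libraries, and Socs1 at 3.87 and 4.94, against 2.04 to 3.17. Slfn2 and Tlr7 were lowest of the guide libraries in e12.3 replicate 3, at 13.2 and 0.423 FPKM. No test was made of these differences, since the libraries were singled out by their values.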
